A study of Mus musculus with 16 samples.

Results

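The genes described here are the 48 of the 13430 genes in the deposited kidney table whose mean level lay at least 3-fold apart between wild-type and IRR knockout mice, on the scale of log2(RPKM + 0.1). They were chosen by a rule on these same values. The mean log2 over the 8 knockout and the 8 wild-type libraries had to differ by at least 1.585 in either direction, no knockout value was allowed to fall within the wild-type range, and the mean RPKM in the higher genotype had to be at least 1. Symbols starting with mt-, Rpl, Rps, Mrp, Fg, Aqp or Fxyd were left out, and 9 genes that met the values were dropped for this reason. Of the 48, 30 were higher and 18 were lower in the knockout. Before the prefixes were removed the rule picked 0.424% of all genes in the table, 0.261% higher and 0.164% lower, and the mere absence of overlap between the 8 and 8 values held for 8.85%, 4.47% with the knockout higher and 4.38% with it lower. Because the genotype contrast chose the genes, the genotype differences are given as a description and carry no test.

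Each of 16 libraries came from the kidney of 1 mouse, from a segment 3 mm thick cut at mid-organ. All mice were C57BL/6 females and 2 to 3 months old. Wild-type and IRR-/- mice each drank either plain water or water with 250 mM NaHCO3 at pH 8.5, which gave 4 groups of 4 mice. The drink was given for 7 days, and all mice were fasted for 12 h with free access to their drink. The sources used here do not say which part of Insrr the knockout allele removes or whether the wild-type mice were littermates.

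IRR is the insulin receptor-related receptor, a relative of the insulin receptor with tyrosine kinase activity. It is switched on by alkaline medium around the cell and is found in the kidney on intercalated cells of the collecting duct. Retrocopies, which are intron-less copies of a spliced messenger, tandem duplicates and genes that overlap a neighbour all share sequence with another gene, and a quantifier then has to divide reads between them.

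Insrr itself was lower in the knockout but was not among the 48. Its RPKM in the wild type was 4.20 to 6.73 (median 5.41) and in the knockout 3.31 to 4.11 (median 3.62), so that no knockout library reached the lowest wild-type one. The difference on the log2 scale was -0.59. Insrr lies at chr3:87796951-87816101 on the plus strand of GRCm38.

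The libraries of the genotypes also stood apart as wholes. The summed RPKM was 1358800 to 1602900 in the wild type and 2415200 to 2927100 in the knockout, and genes encoded by mitochondrial DNA held 69.6% to 74.2% and 82.6% to 84.9% of it. Without those genes the sums were 404480 to 439140 and 421170 to 462790, and the median RPKM was 8.66 to 8.92 and 8.44 to 8.78. In the limma fit over all genes 33.7% were called different between the genotypes. Markers of the tubules, podocytes and endothelium were present in all groups, whereas none of the 5 skeletal muscle and 5 pancreas markers was in the table. The summed RPKM of the 10 macrophage and antigen-presenting cell markers in the table was 144 to 222 in the wild type and 212 to 265 in the knockout. The list was mixed, however: 4 of the 10 had a positive knockout minus wild-type difference, and the median difference was -0.096 on the log2 scale. Only 2 were without overlap, both higher in the knockout. The summed RPKM of 4 adipose markers varied from 1.55 to 242. Of these, 0 had a positive difference, with a median of -1.82, and 0 were without overlap. The same held for the 5 blood cell markers in the table, 0 of them positive and 0 without overlap, with a median difference of -0.52. The part of these shifts in the values of the 48 genes was not tested.

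**Figure D1:**
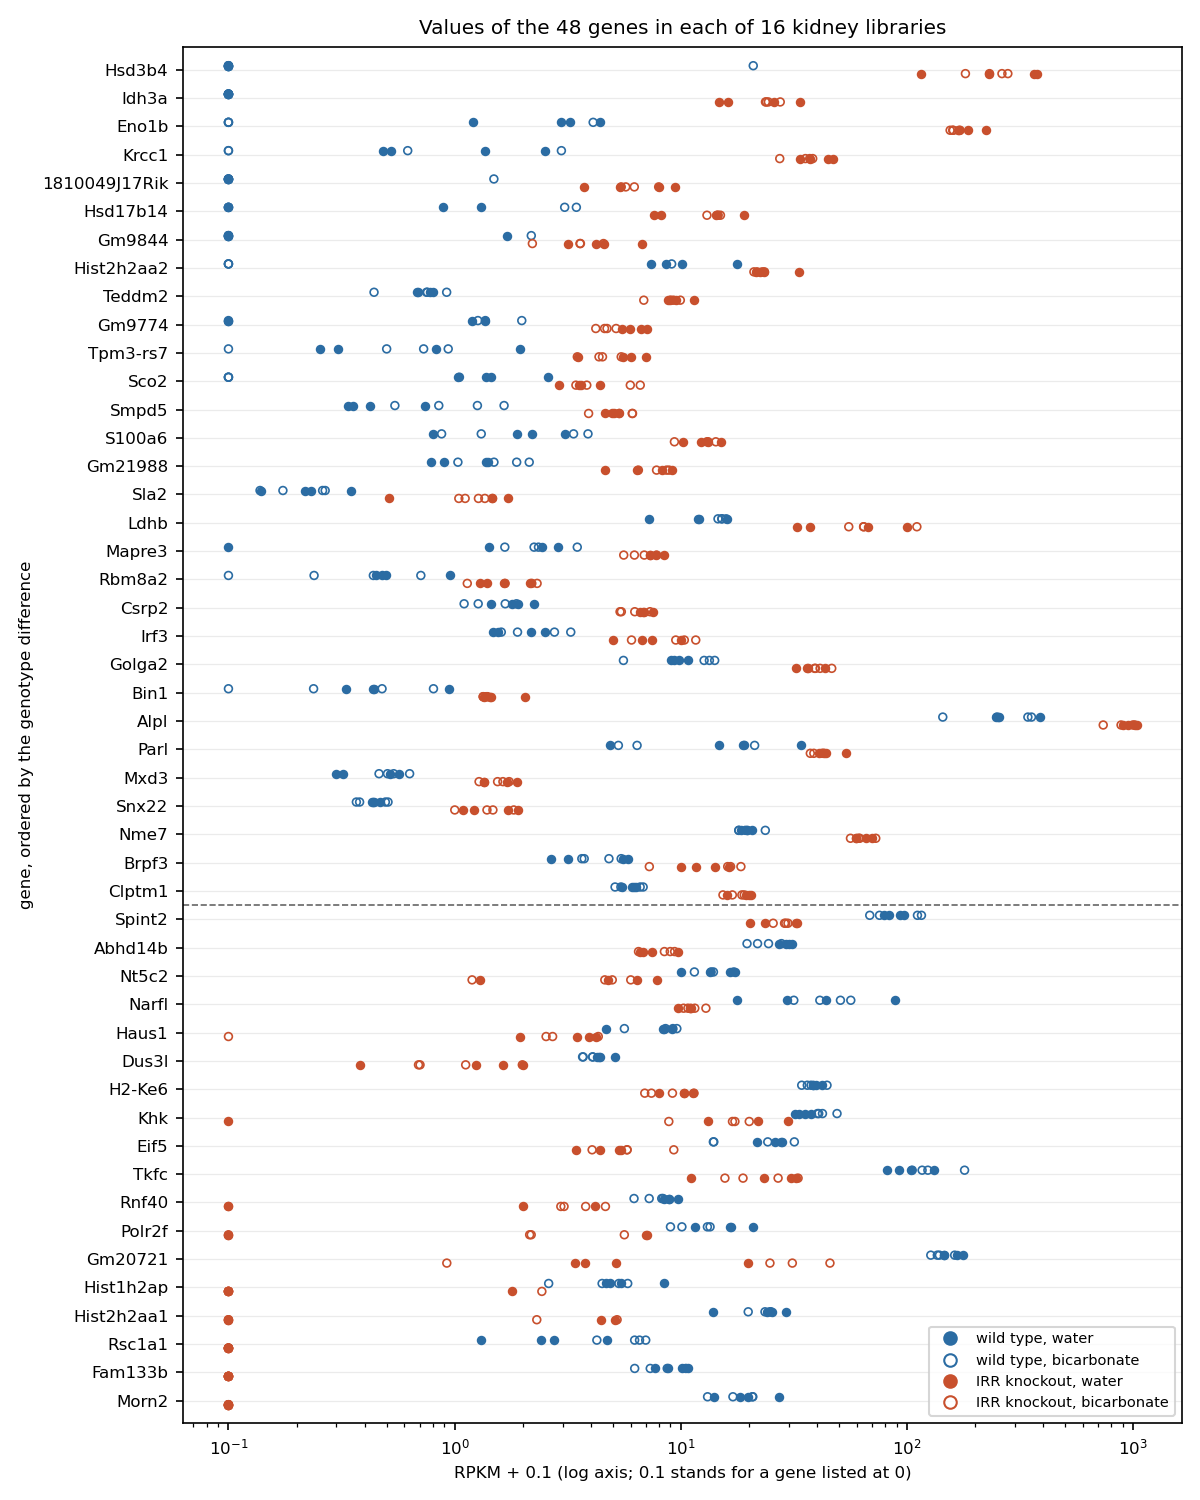
RPKM + 0.1 of the 48 genes (log axis) in each of the 16 libraries, with wild type in blue, knockout in red, water filled and bicarbonate open. The dashed line divides the 18 genes lower in the knockout, below, from the 30 higher; points at 0.1 are genes listed at 0, and no gene has overlapping blue and red points since the rule required this.

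By function the 48 genes were mixed. Grouped by the role of the product, 8 belonged to histones, chromatin and transcription, 3 to RNA handling and protein synthesis, 3 to steroid dehydrogenases and their relatives, 7 to sugar use and mitochondria, 6 to other enzymes and iron-sulfur assembly, 8 to the cytoskeleton and membrane traffic, and 5 to signalling, surface and secreted proteins. No role is stated for the other 8. Among families set up by symbol, histones held 3 of the 48 among 27 tested genes, predicted genes named Gm or ending in Rik held 5 among 344, RNA polymerase subunits 1 among 29, and thymosins and S100 proteins 1 among 11. H2-Ke6 fell among the 17 tested genes with a histocompatibility prefix, although its product is a hydroxysteroid dehydrogenase. Over all tested genes 0.371% were members. The other 18 families held none, which at that share is near the background for each family taken alone. The largest of them were zinc finger proteins with 396 tested genes and solute carriers with 287. The 18 families were not weighed together.

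Sequence shared with another gene was common among the 48. For each gene, all stretches of 31 bases of its annotated transcripts were looked up, on both strands, in the transcripts of every other gene in the table. In 13 of the 48 (27.1%) at least 50% of these stretches occurred in another gene, against 2.36% of the 12943 genes that passed the filter on low values. At a share of 10% or more the counts were 20 of 48 (41.7%) and 10.3%. Below 10% lay 28 members, 16 higher and 12 lower in the knockout. Against every annotated gene, in the table or not, 25 of 48 (52.1%) shared 10% or more, and 22.1% of the tested genes did. From the 28 these included H2-Ke6 (76.1%), Ldhb (33.0%), Abhd14b (23.3%), Tkfc (17.65%) and Rnf40 (11.9%). Single-exon genes made up 9 of the 48 (18.8%) and 2.41% of the tested genes. The following coding stretches of 120 bases, from GENCODE M21 on GRCm38, show how alike the members and their relatives are. Capitals mark every position that differs within the set, and each window was placed where most such positions fall.

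The histone H2A genes come first, because the pair that moved in opposite directions has the same letters at every position. Bases 2 to 121 of the coding sequence are shown, with 17 positions at which Hist1h2ap differs from both others.
Hist2h2aa1: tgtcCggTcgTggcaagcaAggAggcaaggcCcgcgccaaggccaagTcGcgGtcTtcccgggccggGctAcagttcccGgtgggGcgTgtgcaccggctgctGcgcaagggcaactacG
Hist2h2aa2: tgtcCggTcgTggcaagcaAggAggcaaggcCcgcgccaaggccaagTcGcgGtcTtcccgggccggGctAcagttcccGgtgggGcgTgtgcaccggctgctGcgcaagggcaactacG
Hist1h2ap: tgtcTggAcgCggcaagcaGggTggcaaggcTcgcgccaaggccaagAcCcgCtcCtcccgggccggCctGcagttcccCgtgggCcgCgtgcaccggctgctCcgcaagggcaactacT

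The 3-beta-hydroxysteroid dehydrogenase genes include the member with the greatest difference. In bases 54 to 173, 2 positions set Gm4450 apart and none separates Hsd3b4 from Gm10681.
Hsd3b4: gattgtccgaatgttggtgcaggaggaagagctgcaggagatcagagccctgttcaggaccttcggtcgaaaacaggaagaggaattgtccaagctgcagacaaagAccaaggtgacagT
Gm10681: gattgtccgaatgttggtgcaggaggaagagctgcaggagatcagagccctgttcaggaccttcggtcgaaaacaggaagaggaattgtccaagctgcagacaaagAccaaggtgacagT
Gm4450: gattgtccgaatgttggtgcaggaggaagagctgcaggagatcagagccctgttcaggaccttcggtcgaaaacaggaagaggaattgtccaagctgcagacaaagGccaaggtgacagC

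Intron-less copies and their spliced parents are shown for tropomyosin (bases 8 to 127, 3 differing positions), the proteasome ubiquitin receptor gene Adrm1 (bases 950 to 1069, 2 positions) and the exon junction protein gene Rbm8a (bases 76 to 195, 7 positions).
Tpm3-rs7: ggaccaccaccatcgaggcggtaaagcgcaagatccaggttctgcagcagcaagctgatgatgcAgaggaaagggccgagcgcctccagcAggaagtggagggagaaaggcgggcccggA
Tpm3: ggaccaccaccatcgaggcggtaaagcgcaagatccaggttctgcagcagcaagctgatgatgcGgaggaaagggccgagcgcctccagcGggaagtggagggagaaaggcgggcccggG
Gm9774: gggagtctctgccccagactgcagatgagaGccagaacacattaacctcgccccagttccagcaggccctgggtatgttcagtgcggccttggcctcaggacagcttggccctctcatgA
Adrm1: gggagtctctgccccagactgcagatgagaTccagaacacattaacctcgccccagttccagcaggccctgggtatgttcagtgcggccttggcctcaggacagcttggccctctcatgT
Rbm8a2: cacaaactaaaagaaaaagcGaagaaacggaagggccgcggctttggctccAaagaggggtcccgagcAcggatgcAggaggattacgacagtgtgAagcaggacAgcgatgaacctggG
Rbm8a: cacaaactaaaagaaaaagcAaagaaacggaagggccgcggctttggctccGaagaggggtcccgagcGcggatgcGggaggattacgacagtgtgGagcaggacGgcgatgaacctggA

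The histone pair Hist2h2aa1 and Hist2h2aa2 exchanged levels between the genotypes. Both encode histone H2A, a core protein of the nucleosome. They lie 5.22 kb apart on opposite strands, at chr3:96245497-96246082 and chr3:96239749-96240276, and their coding sequences of 390 bases were 100% identical. In wild-type kidneys Hist2h2aa1 stood at 29.0, 13.8, 23.8 and 25.2 RPKM on water and 24.9, 24.6, 23.4 and 19.8 on bicarbonate, and in the knockout 4.34, 5.04, 0 and 0 on water and 5.13, 2.21, 0 and 0 on bicarbonate. The RPKM of Hist2h2aa2 was 9.98, 17.54, 8.52 and 7.27 in the wild type on water and 9.01, 0, 0 and 0 on bicarbonate, and in the knockout 23.2, 22.3, 33.1 and 21.3 on water and 20.9, 22.8, 21.6 and 23.3 on bicarbonate. Hist2h2aa1 was therefore high in every wild-type library and at 0 in 4 knockout libraries, and Hist2h2aa2 was high in every knockout library and at 0 in 3 wild-type libraries on bicarbonate. The sum of the pair was 19.8 to 39.0 in the wild type and 21.3 to 33.1 in the knockout, with a difference of -0.19 on the log2 scale. In the sum the genotypes overlapped. Hist2h2aa1 made up 44.0% to 100% of it in the wild type and 0% to 19.7% in the knockout.

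Hist1h2ap, an H2A gene of the cluster on chromosome 13 at chr13:21833026-21833507, was low in all libraries and lower in the knockout. For Hist1h2ap the wild-type libraries held 4.78, 8.34, 5.34 and 4.56 RPKM on water and 2.50, 4.39, 5.22 and 5.72 on bicarbonate, and in the knockout 0, 1.69, 0 and 0 on water and 0, 2.33, 0 and 0 on bicarbonate. Only the second replicate of each knockout group was above 0. Its coding sequence was 91.8% identical to that of Hist2h2aa1, with 32 differing bases, and it shared 93.4% of its 31-base stretches with Hist1h2ao, which is not analysed here, and 66.6% with Hist1h2ac. Hist1h2ac ranged from 0.230 to 0.769 in the wild type and from 0.381 to 0.830 in the knockout, so that the genotypes overlapped.

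Hsd3b4 had the greatest difference in the group. It encodes a member of the 3-beta-hydroxysteroid dehydrogenase family, enzymes that convert delta-5 steroids or, in some kidney members, work as 3-ketosteroid reductases. Hsd3b4 measured 0 in all 4 libraries RPKM in wild-type mice on water and 20.8, 0, 0 and 0 on bicarbonate, and in the knockout 231, 365, 374 and 115 on water and 263, 279, 181 and 231 on bicarbonate. In 7 wild-type libraries it was listed at 0, and the remaining one, on bicarbonate, lay below every knockout library. All its 31-base stretches occur in Gm10681, whose coding sequence of 1119 bases was identical, and 89.7% occur in Gm4450, which differed at 4 bases (99.6% identity). These genes lie side by side on the minus strand of chromosome 3, Hsd3b4 at chr3:98499071-98510514.

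Gm10681 was 204 to 464 in the wild type and 89.5 to 313 in the knockout, and Gm4450 93.8 to 280 and 130 to 242. Both overlapped between genotypes. The sum of the 3 genes was 298 to 734 in the wild type and 334 to 930 in the knockout, a difference of 0.24 on the log2 scale with overlap, and Hsd3b4 held 31.8% to 41.4% of the sum in the knockout and at most 3.87% in the wild type. The knockout libraries with the lowest Hsd3b4, replicate 4 on water at 115 and replicate 3 on bicarbonate at 181, had the highest levels of the related gene Hsd3b2, at 143 and 84.0, against 13.5 to 27.0 in the other 14 libraries. In these same libraries Hsd3b3 was at 11.0 and 21.4, the lowest of the 16.

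Eno1b, an enolase gene of the glycolytic pathway with 2 exons, was at most 4.28 in the wild type and at least 155 in the knockout. Wild-type mice had 3.13, 2.85, 4.28 and 1.11 RPKM of Eno1b on water and 4.00, 0, 0 and 0 on bicarbonate, and in the knockout 185, 168, 170.4 and 224 on water and 159, 171, 160.0 and 155 on bicarbonate. Of its 31-base stretches, 81.8% occur in Eno1, the gene of the ubiquitous alpha-enolase, which lay at 351 to 698 (median 445) in the wild type and 302 to 417 (median 349) in the knockout. Eno1 overlapped between the genotypes, and so did the sum of both genes, with 354 to 698 and 474 to 627 and a difference of 0.23. Eno1b made up 30.0% to 36.2% of that sum in the knockout and at most 1.10% in the wild type.

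Among the smaller intron-less copies, Tpm3-rs7 matched Tpm3, a tropomyosin of thin filaments, in all but 3 of 744 coding bases (99.6%). In wild-type kidneys Tpm3-rs7 stood at 0.204, 0.154, 0.726 and 1.84 RPKM on water and 0.401, 0.837, 0.629 and 0 on bicarbonate, and in the knockout 3.41, 5.94, 6.88 and 5.44 on water and 3.39, 4.40, 5.35 and 4.25 on bicarbonate. Tpm3 went the other way, with 103 to 131 in the wild type and 84.7 to 94.0 in the knockout and no overlap, and the sum followed Tpm3 at a difference of -0.34. The copy held at most 7.46% of the sum in any library.

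Gm9774, at chr3:92428032-92429423, matched Adrm1 on chromosome 2 in all but 3 of 1221 coding bases (99.8%). The RPKM of Gm9774 was 1.27, 1.09, 0 and 0 in the wild type on water and 1.27, 1.88, 1.17 and 0 on bicarbonate, and in the knockout 6.97, 6.58, 5.41 and 5.88 on water and 5.07, 4.62, 4.11 and 4.50 on bicarbonate. Every knockout library was above every wild-type one, as the rule required. Adrm1 was 26.6 to 36.6 and 21.5 to 35.6, and the sum 27.8 to 37.8 and 26.0 to 40.7, both with overlap.

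Gm9844, an intron-less gene of 485 nt, shared 73.8% of its 31-base stretches with Tmsb10, the gene of the actin-binding peptide thymosin beta-10. For Gm9844 the wild-type libraries held 0, 1.61, 0 and 0 RPKM on water and 0, 0, 2.08 and 0 on bicarbonate, and in the knockout 4.46, 4.10, 6.66 and 3.07 on water and 3.48, 2.11, 4.45 and 3.50 on bicarbonate. Tmsb10 was also higher on average in the knockout, at 24.2 to 30.5 against 15.2 to 26.8, with overlap. Here the sum remained apart, at 15.2 to 26.8 in the wild type and 27.7 to 34.8 in the knockout with a difference of 0.65. Weighted by the length of the longest annotated transcript, the sums overlapped.

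Rbm8a2 encodes a copy of the exon junction complex protein of Rbm8a and was 97.7% identical to it over 522 coding bases. Rbm8a2 measured 0.377, 0.858, 0.351 and 0.399 RPKM in wild-type mice on water and 0.139, 0.609, 0 and 0.337 on bicarbonate, and in the knockout 1.55, 1.19, 1.30 and 2.06 on water and 1.04, 1.57, 2.09 and 2.21 on bicarbonate. Rbm8a lay at 5.12 to 10.9 and 4.60 to 10.7, and the sum at 5.46 to 10.9 and 5.63 to 12.0, with overlap in both.

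1810049J17Rik, of 462 nt, lies on the strand opposite to Golph3, a Golgi phosphoprotein gene, and 97.4% of its exon bases are exon bases of Golph3. The RPKM of 1810049J17Rik in wild-type mice was 0 in all 4 libraries on water and 0, 1.39, 0 and 0 on bicarbonate, and in the knockout 9.34, 7.88, 5.26 and 3.65 on water and 7.88, 5.35, 6.13 and 5.61 on bicarbonate. It was listed at 0 in 7 of 8 wild-type libraries. Golph3 was 22.6 to 32.3 in the wild type and 16.9 to 24.6 in the knockout, and the sum was 22.6 to 32.3 and 24.0 to 30.8, again with overlap. Short transcripts as a class were higher in the knockout: over the 34 tested genes of at most 500 nt, which include Gm9844, 1810049J17Rik and Hist1h2ap, the median genotype difference was 0.68 on the log2 scale, against -0.02 for genes over 4000 nt. With each library's trend over transcript length and GC content removed, the rule no longer picked Gm9844, while 1810049J17Rik and Hist1h2ap were picked again.

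**Figure D2:**
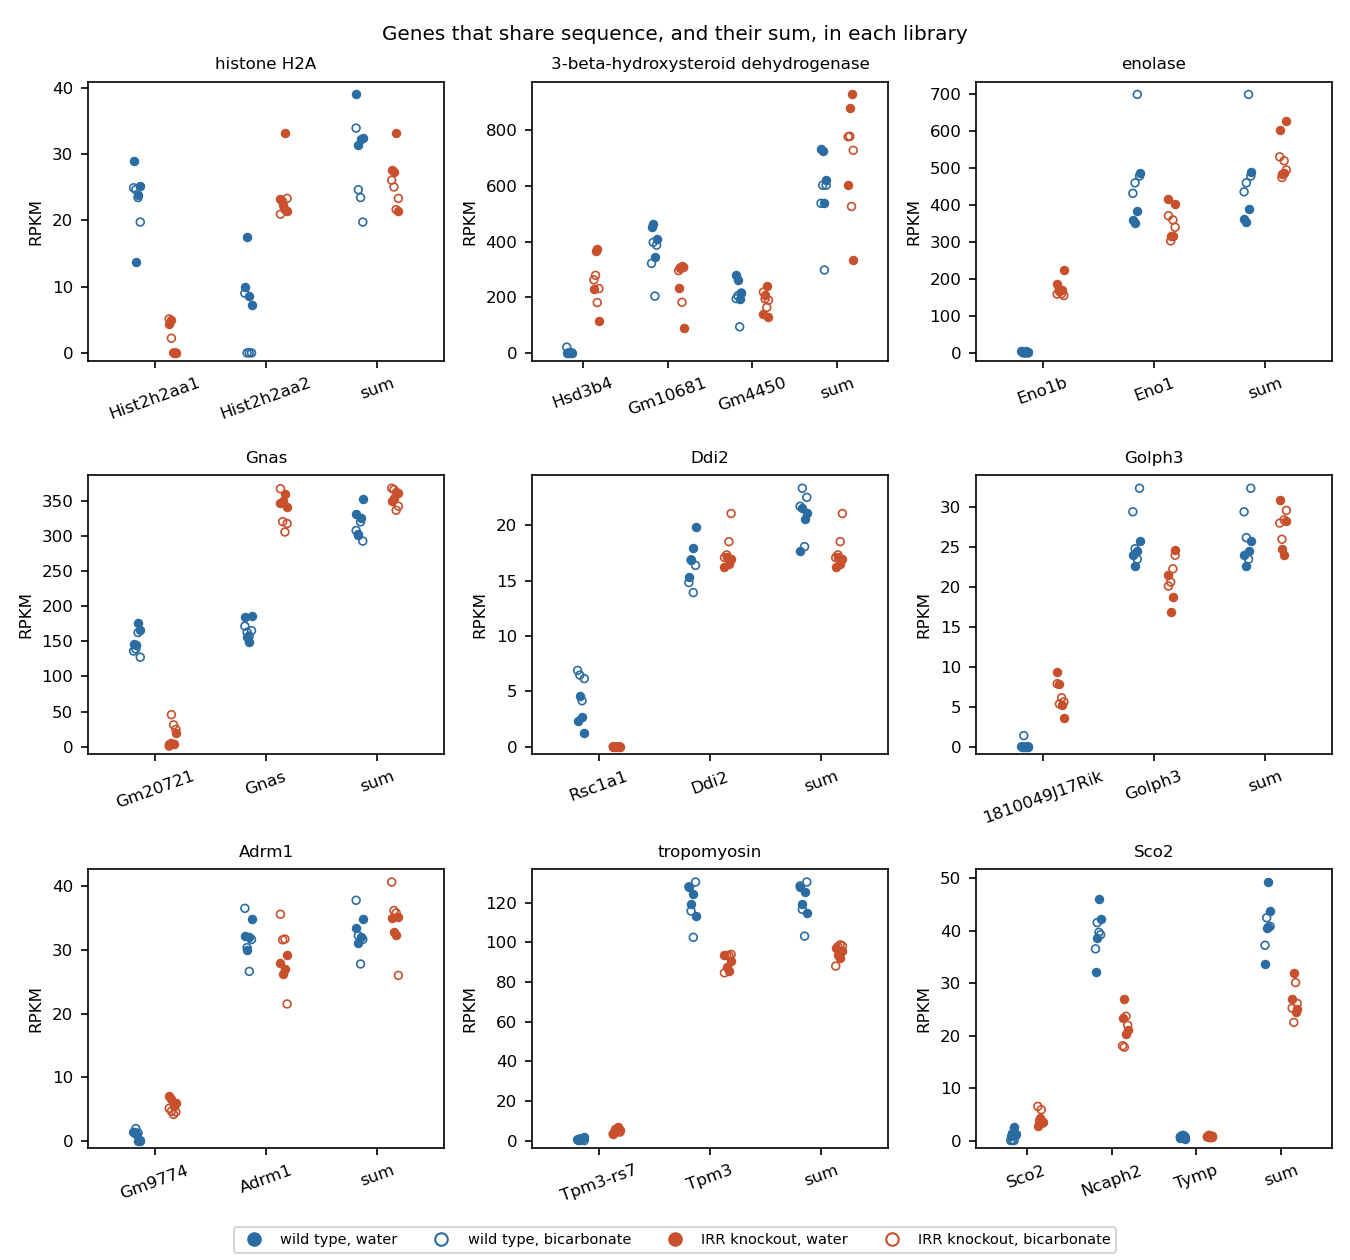
RPKM (linear axis from 0) of members, of the genes they share sequence with and of their sum in each of the 16 libraries, for 9 of the 12 sets; colours and fills mark genotype and drink. In the panels of histone H2A, 3-beta-hydroxysteroid dehydrogenase, enolase and Golph3 the member is apart between genotypes while the points of the sum overlap, and in those of tropomyosin and Sco2 the sum is lower in the knockout.

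Gm20721 was lower in the knockout, and Gnas, with which it shares its exons, was higher. Gm20721, at chr2:174330319-174346712 on the minus strand, has 13 annotated exons that coincide with exons of Gnas, the plus-strand gene of the stimulatory G protein alpha subunit, over 99.0% of their bases. In wild-type kidneys Gm20721 stood at 146, 145, 177 and 166 RPKM on water and 136, 139, 162 and 127 on bicarbonate, and in the knockout 3.29, 5.07, 3.66 and 19.8 on water and 0.823, 45.5, 31.01 and 24.7 on bicarbonate. Gnas was 149 to 186 (median 164) in the wild type and 305 to 367 (median 344) in the knockout. Its knockout values were all above the wild-type ones, with a difference of 1.02 on the log2 scale. The sum of the RPKM was 292 to 352 and 336 to 368, with overlap, and Gm20721 held 43.5% to 54.3% of it in the wild type and 0.224% to 12.5% in the knockout. Weighted by the length of the longest annotated transcript of each gene, the sum was higher in every knockout library, by 0.63 on the log2 scale. The lengths behind the deposited RPKM are unknown, so this weighted sum need not follow read numbers. Without knowledge of strand in the counting, reads of the 2 genes cannot be told apart.

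Rsc1a1, a regulator of sodium-glucose cotransport, is a single-exon gene at chr4:141683851-141685599 that lies whole within an exon of Ddi2 on the same strand, and 100% of its stretches occur there. The RPKM of Rsc1a1 was 2.31, 4.62, 2.65 and 1.21 in the wild type on water and 6.89, 6.47, 4.15 and 6.15 on bicarbonate, and in the knockout it was 0 in all libraries. All 8 knockout libraries were thus listed at 0. Ddi2, the gene of an aspartic protease that processes ubiquitinated proteins, was 13.9 to 19.9 in the wild type and 16.3 to 21.1 in the knockout. The sum overlapped, with 17.6 to 23.3 and 16.3 to 21.1.

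Sco2, a copper chaperone for cytochrome c oxidase, sits at chr15:89371637-89373846. It overlaps Tymp on its own strand over 68.3% of its exon bases and Ncaph2 on the other strand over 66.2%. For Sco2 the wild-type libraries held 0.930, 1.35, 2.50 and 1.28 RPKM on water and 0, 0, 0 and 0.950 on bicarbonate, and in the knockout 2.79, 4.29, 3.53 and 3.46 on water and 6.52, 3.74, 5.88 and 3.336 on bicarbonate. Ncaph2, a condensin II subunit gene, was 32.2 to 46.1 in the wild type and 17.8 to 26.9 in the knockout, and the sum of the 3 genes was lower there as well, with a log2 difference of -0.63 and no overlap. Tymp, thymidine phosphorylase, stayed at or below 0.9996 in all libraries.

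Gm21988, at chr11:70235206-70239830, is a readthrough gene model that joins 0610010K14Rik and Rnasek, and 84.1% of its stretches occur in another gene. Gm21988 measured 1.28, 0.683, 0.797 and 1.30 RPKM in wild-type mice on water and 2.04, 0.934, 1.39 and 1.78 on bicarbonate, and in the knockout 8.15, 6.31, 9.03 and 4.50 on water and 8.54, 6.39, 8.77 and 7.71 on bicarbonate. Rnasek was 111 to 165 and 129 to 179, 0610010K14Rik 15.6 to 29.5 and 18.1 to 27.2, and the sum 131 to 188 and 159 to 215, all with overlap. Gm21988 held at most 5.46% of that sum.

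Over the 12 sets built from 13 members and 14 partner genes, the summed RPKM of the genotypes overlapped in 9 and was apart in 3, those of Tpm3, Tmsb10 and Sco2. With the sums weighted by the longest annotated transcript the counts were again 9 and 3, with Gnas in the place of Tmsb10. Other transcript lengths were not tried as weights. Of the 3 summed RPKM that were apart, 1 was higher and 2 were lower in the knockout. Overlap was also the usual case for single genes, since its absence held for only 8.85% of all genes. Whether the partners offset the members was not tested. Where a partner is far more abundant than the member, as with Adrm1, Rnasek and Tpm3, the sum mainly reflects the partner.

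A smaller overlap, of 10% to 50% of the stretches, was found for 7 members. Morn2 overlaps the start of Dhx57 on the opposite strand at chr17:80290203-80297476. Wild-type mice had 27.0, 13.9, 19.6 and 18.1 RPKM of Morn2 on water and 20.6, 20.7, 16.9 and 13.0 on bicarbonate, and in the knockout it was 0 in all libraries. Morn2, a small protein with MORN repeats, was thus listed at 0 in all 8 knockout libraries, and Dhx57 was 2.85 to 4.36 and 3.94 to 4.56. Dhx57 overlapped between the genotypes.

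Polr2f, the gene of a subunit shared by the nuclear RNA polymerases, was lower in the knockout and uneven there. In wild-type kidneys Polr2f stood at 16.6, 20.7, 11.5 and 16.4 RPKM on water and 13.4, 8.90, 13.0 and 10.01 on bicarbonate, and in the knockout 6.89, 0, 0 and 6.95 on water and 5.53, 0, 2.05 and 2.08 on bicarbonate. It was listed at 0 in 3 knockout libraries and reached 6.95 at most in the rest. Snx22, a sorting nexin, shares 26.6% with Ppib on the other strand. The RPKM of Snx22 was 0.336, 0.339, 0.332 and 0.370 in the wild type on water and 0.394, 0.280, 0.408 and 0.268 on bicarbonate, and in the knockout 1.61, 0.986, 1.81 and 1.12 on water and 1.73, 1.38, 1.29 and 0.901 on bicarbonate. Ppib, cyclophilin B, was 120 to 137 and 90.5 to 129, with overlap.

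Sla2, an adaptor that dampens T cell receptor signalling, shares 21.5% with Rab5if. For Sla2 the wild-type libraries held 0.0398, 0.118, 0.132 and 0.250 RPKM on water and 0.161, 0.0741, 0.168 and 0.0379 on bicarbonate, and in the knockout 1.36, 0.411, 1.37 and 1.61 on water and 1.01, 0.943, 1.26 and 1.17 on bicarbonate. Rab5if was 67.3 to 96.1 and 68.1 to 91.3. Both markers on the list of lymphocytes and plasma cells that were in the table were low, with summed RPKM of 1.52 to 11.9.

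Smpd5, a mitochondria-associated neutral sphingomyelinase, shares 12.1% with Oplah. Smpd5 measured 0.638, 0.254, 0.322 and 0.236 RPKM in wild-type mice on water and 0.444, 1.16, 1.55 and 0.751 on bicarbonate, and in the knockout 4.85, 4.50, 4.97 and 5.22 on water and 3.81, 6.00, 5.24 and 6.02 on bicarbonate. Oplah, 5-oxoprolinase, was 78.3 to 149 and 95.9 to 132, with overlap. Nme7, a nucleoside diphosphate kinase family member of the ciliary and centrosomal kind, shares 12.9% with other genes, mainly Atp1b1. Wild-type mice had 18.4, 19.4, 20.5 and 19.5 RPKM of Nme7 on water and 19.2, 17.9, 23.5 and 17.9 on bicarbonate, and in the knockout 70.1, 59.2, 59.6 and 65.7 on water and 61.7, 72.6, 61.0 and 56.1 on bicarbonate. The Nme7 values of a genotype lay close together. Atp1b1, the sodium pump beta subunit, was 1290 to 1794 and 1779 to 1939.

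Of the 28 members with less than 10% of their sequence shared with genes in the table, Idh3a stood out among enzymes. It encodes the catalytic alpha subunit of the NAD-dependent isocitrate dehydrogenase of the citric acid cycle and shares none of its 31-base stretches with any other annotated gene. Every wild-type library listed Idh3a at 0, and the knockout had 16.1, 25.7, 14.7 and 33.5 RPKM on water and 27.4, 23.6, 24.3 and 23.8 on bicarbonate. It was listed at 0 in all 8 wild-type libraries and was at least 14.7 in the knockout. The other subunits of the same complex did not show this: Idh3b was 148 to 202 in the wild type and 184 to 248 in the knockout, and Idh3g 161 to 232 and 198 to 255.1, both with overlap. Why Idh3a was listed at exactly 0 was not tested, and no fold is given. In the whole table only 3 genes had 8 wild-type zeros with a knockout mean of at least 1 (Idh3a, Grtp1 and Maz), and 6 had 8 knockout zeros with a wild-type mean of at least 1 (Morn2, Fam133b, Rsc1a1, Ankrd49, Eef1akmt1 and Gm5096).

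The rule favours genes listed at 0 in 1 genotype, since a 0 becomes a low value on the log2(RPKM + 0.1) scale and widens the difference. At least 1 library was listed at 0 in 23 (47.9%), against 3.63% of the tested genes. The zeros lay in the wild type only for 14 genes and in the knockout only for 9. Of the 13 genes with 50% or more shared sequence 11 had a zero, and of the 28 with less than 10% 9 had one. The shares of zeros among all tested genes of these classes were not computed.

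Sugar metabolism was represented by enzymes that went in both directions. Ldhb, the heart-type lactate dehydrogenase subunit, was 7.14 to 15.8 (median 14.8) in the wild type and 32.6 to 110.4 (median 64.2) in the knockout. The knockout values varied more than those of the wild type. Ldha, the muscle-type subunit, was 223 to 279 and 170 to 232, lower on average in the knockout with overlap. A processed pseudogene, Gm5514, which is not analysed here, shares 33.0% of the stretches of Ldhb.

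Both fructose-handling enzymes, by contrast, were lower in the knockout. Khk, ketohexokinase, which phosphorylates fructose, was 31.7 to 48.9 (median 38.9) in the wild type and 0 to 29.8 (median 17.03) in the knockout. In wild-type kidneys Tkfc stood at 81.6, 92.3, 104 and 131 RPKM on water and 124, 116, 179.5 and 105 on bicarbonate, and in the knockout 11.0, 23.2, 30.4 and 32.3 on water and 18.7, 32.9, 15.6 and 26.8 on bicarbonate. Tkfc, triokinase, which acts on the glyceraldehyde made downstream of Khk, was thus at most 32.9 in the knockout. The ratio of the mean RPKM was 4.89 for Tkfc but 2.42 for Khk. Khk met the rule through 1 knockout library on water, replicate 2, which was listed at 0. Without it the log2 difference of Khk was -1.16 and the ratio of means 2.12, short of the threshold. Haus1 and Parl were the other members with a ratio of mean RPKM under 3, at 2.80 and 2.75.

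Parl, a rhomboid protease of the inner mitochondrial membrane, was 4.74 to 34.0 (median 16.7) in the wild type and 37.3 to 53.4 (median 42.3) in the knockout. The wild-type values varied widely and the knockout ones little.

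Among the steroid enzymes without a copy in the table, Hsd17b14, a 17-beta-hydroxysteroid dehydrogenase family member, was higher in the knockout. The RPKM of Hsd17b14 was 1.21, 0, 0.790 and 0 in the wild type on water and 0, 3.35, 0 and 2.97 on bicarbonate, and in the knockout 7.499, 19.0, 14.2 and 8.04 on water and 14.4, 12.9, 14.9 and 14.5 on bicarbonate. It was listed at 0 in 4 wild-type libraries. H2-Ke6, also known as Hsd17b8, takes part in mitochondrial fatty acid synthesis and was lower. For H2-Ke6 the wild-type libraries held 38.4, 39.4, 42.2 and 38.2 RPKM on water and 37.5, 34.1, 44.2 and 36.1 on bicarbonate, and in the knockout 7.88, 11.2, 10.2 and 10.2 on water and 7.31, 6.83, 11.3 and 9.08 on bicarbonate. Its values were tight within each group, and 76.1% of its stretches also occur in the overlapping transcript Gm20427, which is not analysed here.

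Of the other enzymes, Alpl, tissue-nonspecific alkaline phosphatase, was the most abundant member in the knockout and shares no sequence. It was 144 to 386 (median 254) in the wild type and 737 to 1035 (median 970.3) in the knockout, and the genotype difference was 1.80 on water and 1.81 on bicarbonate. Nt5c2, a cytosolic purine nucleotidase, was 9.91 to 17.2 (median 13.7) and 1.09 to 7.77 (median 4.77) in the same order. Abhd14b, a hydrolase of the alpha/beta fold, was 19.5 to 30.9 (median 27.5) and 6.40 to 9.66 (median 7.85). Narfl, a factor of cytosolic iron-sulfur protein assembly, was 17.6 to 88.3 (median 42.4) in the wild type, where it varied widely, and 9.63 to 12.8 (median 10.9) in the knockout. Alpl was thus higher in the knockout, while Nt5c2, Abhd14b and Narfl were lower.

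Regulators of chromatin and transcription outside the histones were split. Rnf40, a ubiquitin ligase for histone H2B, was lower. Rnf40 measured 9.66, 8.81, 8.74 and 8.36 RPKM in wild-type mice on water and 8.13, 7.15, 6.11 and 8.24 on bicarbonate, and in the knockout 4.08, 0, 0 and 1.90 on water and 2.95, 4.54, 3.69 and 2.85 on bicarbonate. On water, 2 of the 4 knockout libraries were listed at 0, and on bicarbonate none was. Brpf3, a scaffold of a histone acetyltransferase complex, was 2.58 to 5.76 (median 4.17) in the wild type and 7.16 to 18.3 (median 15.04) in the knockout. Mxd3, a MAX-binding repressor, was 0.198 to 0.532 (median 0.412) and 1.18 to 1.78 (median 1.49), near the lower limit of level in the rule. Irf3, the transcription factor that induces type I interferon after sensing of nucleic acids, was 1.38 to 3.16 (median 1.94) and 4.90 to 11.5 (median 8.36).

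In protein synthesis, Eif5, the translation initiation factor that activates GTP hydrolysis by eIF2, and Dus3l, a dihydrouridine synthase for tRNA, were lower in the knockout. Wild-type mice had 27.8, 21.6, 27.7 and 26.0 RPKM of Eif5 on water and 13.8, 13.9, 24.1 and 31.7 on bicarbonate, and in the knockout 4.29, 3.336, 5.35 and 5.21 on water and 9.21, 5.68, 5.69 and 3.95 on bicarbonate. Dus3l was 3.58 to 5.02 (median 4.07) in the wild type and 0.281 to 1.90 (median 1.08) in the knockout. Both were apart from the wild type in every library.

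Of the 8 members placed under the cytoskeleton and membrane traffic, 7 were higher in the knockout, as were 30 of all 48. Golga2, a Golgi matrix protein, was 5.47 to 14.01 (median 10.2) in the wild type and 32.2 to 46.4 (median 39.1) in the knockout. Mapre3, a microtubule plus-end protein, was 0 to 3.38 (median 2.20) and 5.49 to 8.34 (median 7.18). Csrp2, a LIM protein of smooth muscle, was 1.001 to 2.14 (median 1.63) and 5.29 to 7.45 (median 6.57). Bin1, a membrane-bending amphiphysin, was low in both, at 0 to 0.842 (median 0.336) and 1.24 to 1.95 (median 1.29). The stroma and matrix markers, which include smooth muscle actin, overlapped between the genotypes for all 6 genes.

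Haus1, an augmin subunit of the spindle, was the member of this role that was lower. In wild-type kidneys Haus1 stood at 4.58, 8.35, 9.03 and 8.25 RPKM on water and 9.502, 5.53, 8.46 and 9.12 on bicarbonate, and in the knockout 1.85, 3.85, 4.10 and 3.37 on water and 2.61, 4.22, 2.44 and 0 on bicarbonate. A single knockout library, on bicarbonate (replicate 4), was listed at 0, and without it the log2 difference of Haus1 was -1.28, short of the threshold.

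S100a6, a calcium-binding protein, was the member nearest to Insrr. The RPKM of S100a6 was 2.99, 2.10, 1.78 and 0.701 in the wild type on water and 3.79, 0.776, 1.21 and 3.26 on bicarbonate, and in the knockout 13.1, 10.2, 14.9 and 12.1 on water and 14.2, 9.27, 13.1 and 12.9 on bicarbonate. It has no shared 31-base stretch and lies at chr3:90612882-90624181. Spint2, a Kunitz-type inhibitor of serine proteases at the surface of epithelia, was 68.3 to 116 (median 88.2) in the wild type and 20.2 to 32.7 (median 28.8) in the knockout, without a zero and with little spread. Clptm1, a multipass membrane protein, was 5.02 to 6.71 (median 6.04) and 15.3 to 20.3 (median 18.7), and lay just inside the threshold.

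Among the members of unstated role, Fam133b, Krcc1 and Teddm2 share little sequence with other genes. For Fam133b the wild-type libraries held 9.97, 8.70, 7.56 and 10.6 RPKM on water and 6.15, 7.22, 10.4 and 8.60 on bicarbonate, and in the knockout it was 0 in all libraries. Fam133b was thereby listed at 0 in all knockout libraries. Krcc1 measured 1.27, 0.380, 2.42 and 0.422 RPKM in wild-type mice on water and 0, 0, 0.520 and 2.86 on bicarbonate, and in the knockout 37.1, 44.9, 33.4 and 46.8 on water and 37.0, 35.4, 38.2 and 27.3 on bicarbonate. Wild-type mice had 0.582, 0.588, 0.702 and 0.680 RPKM of Teddm2 on water and 0.658, 0.340, 0.822 and 0.652 on bicarbonate, and in the knockout 9.41, 8.90, 11.3 and 8.64 on water and 9.17, 8.90, 6.76 and 9.85 on bicarbonate. Krcc1 and Teddm2 were both low or at 0 in the wild type and clearly detected in each knockout library.

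At the edge of the rule, the members just inside the threshold were Clptm1 with a log2 difference of 1.60, Brpf3 with 1.66 and Nme7 with 1.69. Just outside lay Trip10 with 1.57, Nom1 with -1.58 and Gm20388 with 1.58. Of the 48 genes, 29 were picked again under each of 8 other settings of pseudocount, scaling, length and GC content, minimum level and drink. A pseudocount of 1 lost 14, and removal of the trend over length and GC content lost 5 (Clptm1, Brpf3, Sco2, Hist2h2aa2 and Gm9844). Leaving out 1 library lost Khk, Haus1, Parl, Brpf3 or Clptm1, of which Clptm1 was lost without any of 5 libraries and Parl without either of 2. All 48 had the same sign of the genotype difference on both drinks, a consequence of the absence of overlap, and for 30 the sizes on the 2 drinks lay within 0.5 on the log2 scale.

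The members were short genes with few exons. Their longest transcripts had a median of 1933.5 nt, against 3377 nt over the tested genes, and their median number of exons was 6.5 against 10. Of the tested genes of at most 500 nt 8.82% were members, and the share was 0.858% from there to 1000 nt, 0.848% up to 2000 nt, 0.294% up to 4000 nt and 0.143% above. Median GC content was 54.8% in the members and 49.8% in the tested genes. Exon overlap of 50% or more with a gene on the other strand was present in 5 members (10.4%) and in 0.804% of the tested genes, and on the same strand in 5 (10.4%) and 1.2%. These properties go together in intron-less copies, so they are not independent.

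**Figure D3:**
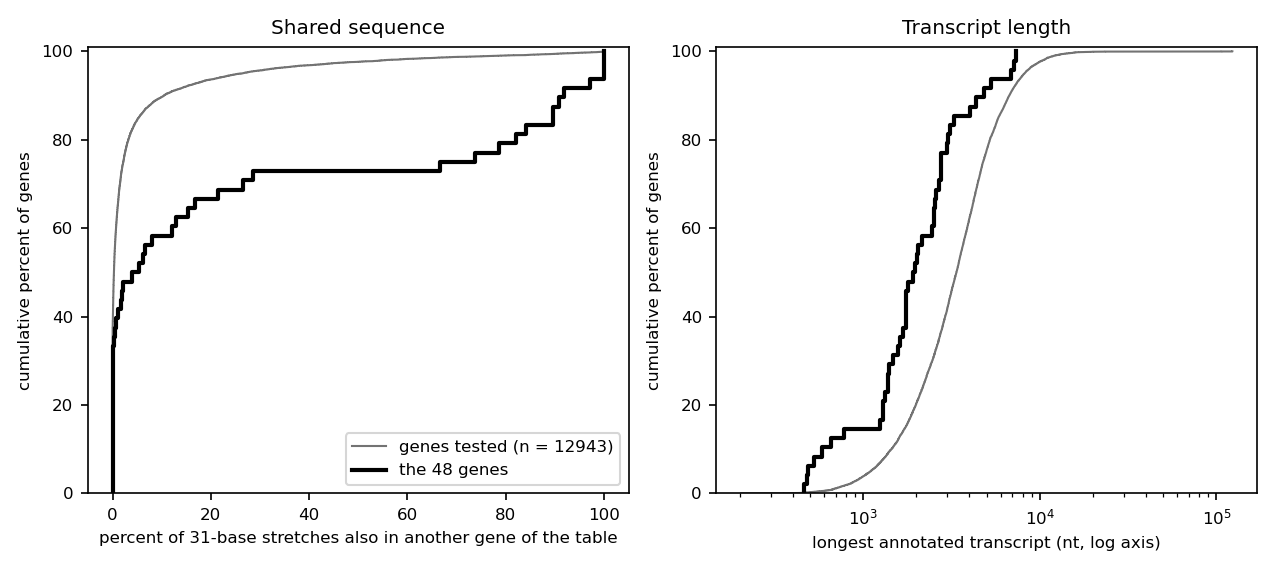
Cumulative percent of genes by the share of their 31-base stretches found in another gene of the table (left) and by the length of the longest annotated transcript in nt (right, log axis), for the 48 genes (black) and the 12943 genes tested (grey). The black curve on the left reaches 100% late, since 27.1% of the 48 genes share 50% or more, and on the right it lies to the left of the grey one, with medians of 1933.5 and 3377 nt.

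In the genome the members were spread over 18 chromosomes, with none on chromosomes 8 and X. As a share of tested genes they were most frequent on chromosome 18 (0.923%), followed by chromosomes 17 (0.81%), 3 (0.772%), 15 (0.771%) and 7 (0.627%). Chromosome 3, which carries Insrr, held 5, and all 5 lay within 20 Mb of Insrr: S100a6 at 2.82 Mb, Gm9774 at 4.63 Mb, Hist2h2aa2 and Hist2h2aa1 at 8.44 and 8.45 Mb and Hsd3b4 at 10.7 Mb. They were 1.66% of the 301 tested genes in that window, against 0.371% of all tested genes. Fgg and Fgb, at -4.79 and -4.76 Mb, also met the values of the rule, with log2 differences of -2.78 and -2.23, and were left out by the prefix Fg. With them the window held 7 such genes (2.33%), on both sides of Insrr. Of the 5, 4 share at least 50% of their 31-base stretches with another gene in the table, and S100a6 shares none. Elsewhere, Mapre3 and Khk lay 55.3 kb apart on chromosome 5 with 3 tested genes between them, one higher and the other lower in the knockout. Irf3 and Hsd17b14, both higher, lay 552 kb apart on chromosome 7.

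**Figure D4:**
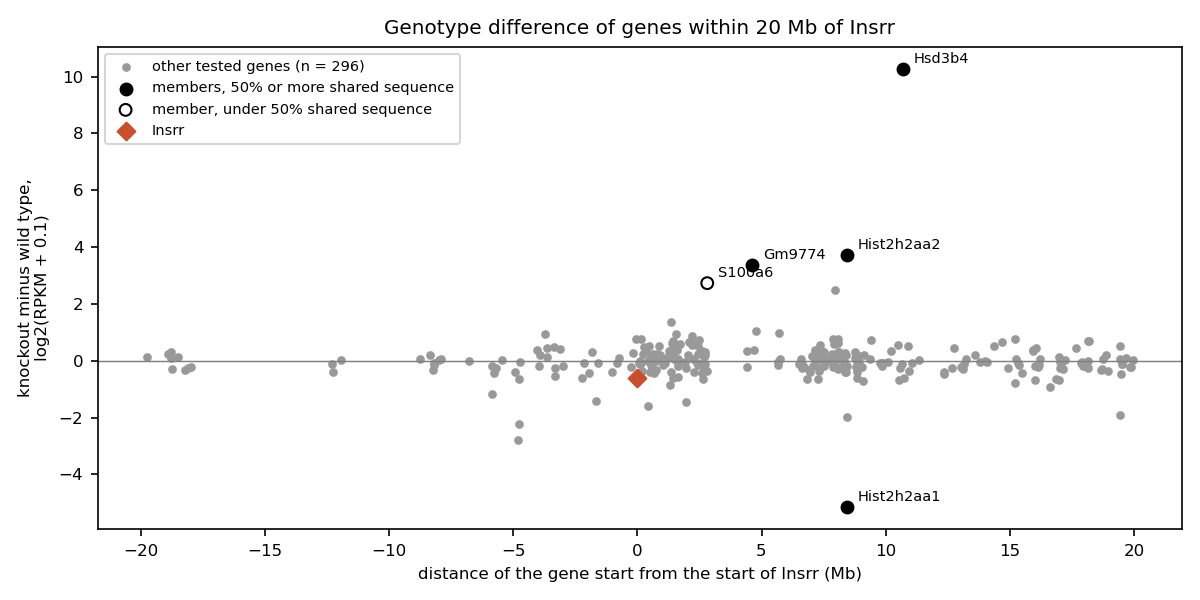
Knockout minus wild-type difference in mean log2(RPKM + 0.1) of the 301 tested genes within 20 Mb of Insrr, by distance of the gene start from the start of Insrr in Mb. The 5 members lie between 2.82 and 10.7 Mb, with 4 above and Hist2h2aa1 below 0, and filled points mark the 4 that share 50% or more of their sequence; Insrr is the diamond, and the grey points at -4.79 and -4.76 Mb are Fgg and Fgb, left out by prefix.

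The rule did not compare the drinks, but it required that the genotypes not overlap over both drinks together. A gene whose drink difference carried values into the range of the other genotype was thereby left out. The effect of the drink was tested with limma over all 12943 genes. No member passed an adjusted p of 0.05 in any of 4 comparisons, a result that is not independent of this choice. The fit held 1 estimate of spread per gene over all 4 groups, so zeros in 1 genotype also widened the SE in the other. Khk, with 1 knockout library at 0, had an SE of 1.28 on the log2 scale in both genotypes. Its wild-type SDs were 2.61 RPKM on water and 4.08 on bicarbonate, about means of 34.4 and 43.0. Bicarbonate against water called 0.139% of all genes in the wild type, 0.0232% in the knockout and 0.44% averaged over the genotypes, and the interaction of genotype and drink called 0.0155%. Members listed at 0 in every library of a genotype cannot show a drink difference there, and those near 0 on both drinks can show little of one. Further counts therefore cover genes that reached an RPKM of 0.5 in 4 or more of the 8 libraries of each genotype compared. At an unadjusted p under 0.05, such members numbered 6 of 39 in the wild type, 1 of 44 in the knockout, 5 of 35 in the average and 6 of 35 in the interaction, where all such genes gave 12.1%, 8.04%, 11.5% and 8.33%. The median size of the drink difference in the wild type, signs aside, was 0.32 on the log2 scale in these members and 0.13 over these genes, and its median SE was 0.35 and 0.14. Fewer cells of a type and less RNA per cell cannot be told apart in these slices.

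The lowest adjusted p in the wild type belonged to Sco2, whose levels are given above. Its difference with bicarbonate was -3.08 ± 0.60 (SE) on the log2 scale, with a limma adjusted p of 0.0610. On bicarbonate, 3 of the 4 wild-type libraries were listed at 0, and the remaining one, at 0.950, was above the lowest value on water, 0.930, so that the groups overlapped. In the knockout the difference was 0.42 ± 0.60, and the interaction was 3.50 (95% interval 1.68 to 5.32, adjusted p 0.420). Without the library at 0.950, replicate 4, the wild-type difference was -3.93 with a limma adjusted p of 1.76e-05. The bicarbonate group then held only zeros, without spread, and the SE fell to 0.30.

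Hist2h2aa2 followed, with -5.06 ± 1.08 in the wild type (limma adjusted p 0.0826) and -0.15 ± 1.08 in the knockout. Again 3 of 4 wild-type libraries on bicarbonate were at 0, and replicate 1 at 9.01 was within the range on water. Without that library the limma adjusted p was 1.04e-09 for Hist2h2aa2 and 1.87e-06 for Eno1b, whose difference with all libraries was -3.40 ± 0.92 (adjusted p 0.152) and whose pattern of zeros was the same. The wild-type bicarbonate group then held only zeros, without spread, and the SE fell to 0.23 and 0.30. These p-values thus rest on libraries listed at 0. Hist2h2aa1, the identical partner, differed by 0.06 ± 1.45 with the drink in the wild type, and Eno1, the partner of Eno1b, had its highest value of all, 698, in replicate 3 on bicarbonate. Leaving out 1 library therefore decided these calls.

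In the wild type the highest positive differences of low p were those of Rsc1a1 and Smpd5. Rsc1a1 differed by 1.23 ± 0.31 (limma adjusted p 0.119) and Smpd5 by 1.18 ± 0.31 (adjusted p 0.133). In both, 1 of the values on bicarbonate fell within the range on water. For Rsc1a1 no response in the knockout can be given, since all libraries are listed at 0, and the SE of Rsc1a1 also draws on those groups without spread. For Smpd5 it was 0.08 ± 0.31.

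In the knockout, Rnf40 had the lowest p among the members. Its difference with bicarbonate was 2.72 ± 0.94 (limma adjusted p 0.474), and it rests on the libraries on water listed at 0. Haus1 differed by -1.31 ± 0.86 and H2-Ke6 by -0.21 ± 0.14, both with overlap between the drinks. Groups of 4 without overlap between the drinks were found for Khk, higher on bicarbonate in the wild type, for Dus3l and Rnf40, lower there, and for Gm9774, lower on bicarbonate in the knockout. Over all tested genes such groups made up 2.54%, 3.31% and 2.94% for these directions, and 2.72% were higher on bicarbonate in the knockout, none of them a member.

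For members with narrow spread the intervals bound the drink difference. Averaged over the genotypes it lay between -0.15 and 0.14 on the log2 scale for Nme7, between -0.24 and 0.10 for Clptm1, between -0.35 and 0.08 for H2-Ke6 and between -0.20 and 0.33 for Spint2 (95% intervals). At the other extreme stood Hist2h2aa1, from -2.28 to 2.11, and Polr2f, from -2.12 to 2.21.

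**Figure D5:**
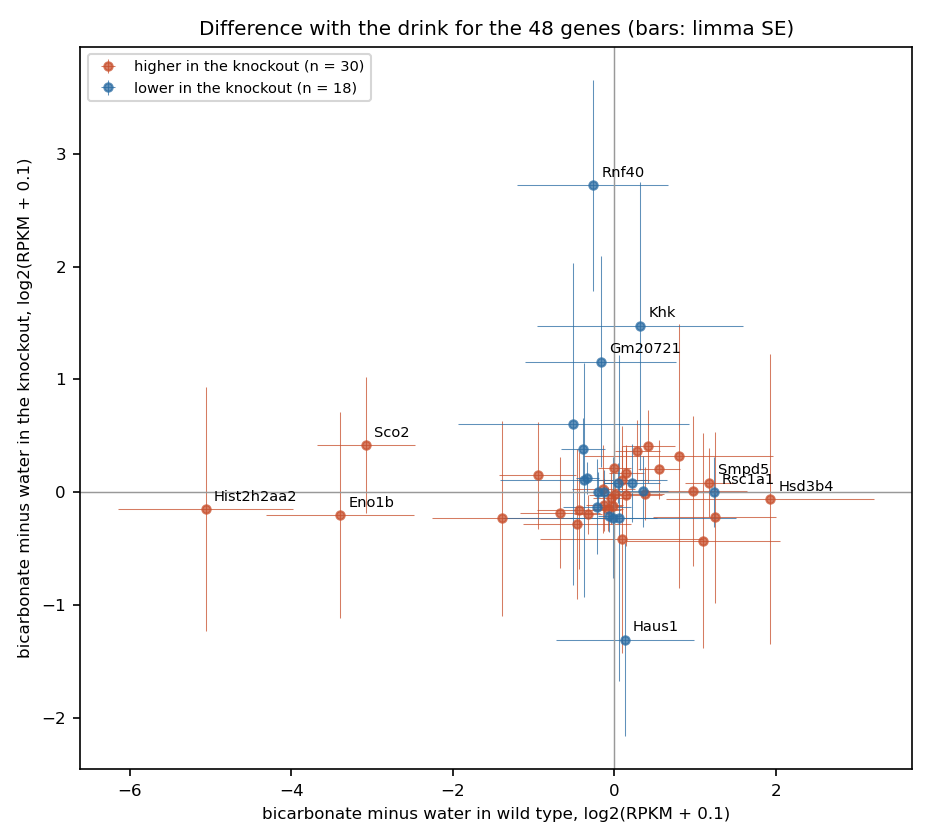
Difference of bicarbonate minus water in log2(RPKM + 0.1) for the 48 genes in the wild type (x axis) and the knockout (y axis), with bars of 1 SE from limma; red genes are higher and blue genes lower in the knockout. Most genes lie near 0 on both axes; Hist2h2aa2 at -5.06, Eno1b at -3.40 and Sco2 at -3.08 stand to the left and Rnf40 at 2.72 at the top, and none passed the adjusted threshold.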

How the data were processed

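The deposited values are RPKM per gene, made by the authors, in 1 table with 1 column for each of the 16 libraries. The submitters' processing notes list Salmon 1.5.2, edgeR 3.34.0, mm10 and GRCm39 without the step each served. The library kit's strandedness and the annotation behind the values are not given in the sources used here. The depth of the libraries is unknown, so no counting error is given, and an exact 0 is described as listed at 0.

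All 13430 gene IDs matched a symbol. The rule for the 48 genes was applied to the values as deposited. The members and lists were chosen with earlier results of these data known. A gene was tested if 4 or more libraries reached an RPKM of 0.5, which held for 12943 genes and all 48 members. Tests were two-sided and used limma 3.58.1 (R 4.3.3) on values transformed as log2(RPKM + 0.1). The group means of the 4 groups were fitted together, the variance was moderated with a trend and robust to outliers, and p was adjusted by Benjamini-Hochberg over all genes with a threshold of 0.05. Log2 differences on this scale understate changes of low genes. Each library is a separate mouse, per the labels' protocols. Nothing in the labels says that replicate numbers pair mice, so the fit has no block. The procedure was first tested on simulated data. Of 100 simulated 2-fold changes among all tested genes, it recovered 70% within either genotype, 89% in the average and 49% in the interaction. At 1.5-fold it recovered 55% in the wild type, 39% in the knockout, 68% in the average and 23% in the interaction. Recovery among the members alone was not examined.

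Positions, lengths, overlaps and 31-base sharing come from GENCODE M21 on GRCm38, read with Python 3.11.15, and coding sequences were aligned with Biopython 1.88. Sharing was computed over all annotated transcripts of a gene, and the annotation may differ from the one the authors used.

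Insrr is named first and any of the 48 genes may be named. Values of each library are given for the 10 highest and 10 lowest genotype differences, the 3 smallest p of each drink comparison, genes with at least 10% shared sequence, and members within 20 Mb of Insrr. Others are given by lowest, median and highest value. Alternatives were other pseudocounts, filters, scalings and variance models, removal of each library's trend over transcript length and GC content (for the rule only), a replicate block, single drinks and leaving out each library. The count of members detected in the genotypes compared was added after seeing the data.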

Additional observations from a re-analysis of the deposited data

Results flagged for a closer look

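In 18 of 182 groups of 4 values, 1 library lay far from the other 3, by Dixon's ratio of the gap to the range at its 95% critical value. About 1 in 20 groups passes this limit by chance, and groups in which 3 values are 0 pass it by construction.

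Groups with 3 libraries at 0 account for 9 of them. In the wild type on bicarbonate, replicate 1 alone was above 0 for Hist2h2aa2 (9.01), Eno1b (4.00) and Hsd3b4 (20.8), replicate 2 for 1810049J17Rik (1.39), replicate 3 for Gm9844 (2.08) and replicate 4 for Sco2 (0.950). In the wild type on water, replicate 2 alone had Gm9844 (1.61). Hist1h2ap was above 0 only in replicate 2 of each knockout group, at 1.69 on water and 2.33 on bicarbonate. The same library, wild type on bicarbonate replicate 1, thus held 3 of these values, all from genes with a near-identical relative.

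In the other groups the value stood beside 3 measured ones. Gm20721 was at 19.8 in knockout replicate 4 on water, against 3.29 to 5.07 in the other 3. Narfl was at 9.63 in knockout replicate 3 on water against 10.9 to 11.0, Bin1 at 1.95 in knockout replicate 1 on water against 1.24 to 1.35, and Hist2h2aa2 at 33.1 in knockout replicate 3 on water against 21.3 to 23.2. Ldhb reached 110.4 in knockout replicate 1 on bicarbonate against 55.2 to 64.3.

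Among wild-type libraries, replicate 2 on water had Dus3l at 5.02 against 4.17 to 4.29 and Rbm8a2 at 0.858 against 0.351 to 0.399. Replicate 4 on water had Alpl at 386 against 247 to 255.9. Replicate 3 on bicarbonate had Golga2 at 5.47 against 12.6 to 14.01. None of these values reached the range of the other genotype, as the choice of the genes requires.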

How the results depend on the processing

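The rule chose 30 genes as higher and 18 as lower in the knockout. With a pseudocount of 1 it chose 19 as higher, on the water libraries alone 53 and 53, and on the bicarbonate libraries alone 52 and 29, where groups of 4 overlap less readily than groups of 8. Leaving out each library gave 29 to 38 and 18 to 25. For the drink, 18 genes were called in the wild type, 57 in the average and 2 in the interaction. Quantile normalization called 34 in the wild type, 1 of them a member (Sco2, adjusted p 0.0477). Without trend and robust fitting limma called 36 in the average and 4 in the interaction. The interaction fell to 0 with a pseudocount of 0.01 and with an RPKM of at least 1 in 8 libraries, and to 1 with a pseudocount of 1. The causes were not tested. Leaving out each library gave 2 to 82 genes in the wild type, 17 to 95 in the average and 0 to 5 in the interaction, and 0 to 2 members in each. Calls of members appeared without wild-type bicarbonate replicate 1 (Hist2h2aa2 and Eno1b) and without replicate 4 (Sco2). In the knockout the count of 3 genes remained 2 to 4, with 0 members called in any of the 25 alternatives. Among the members with the 3 smallest p of each drink comparison, no alternative reversed the direction. Directions of the other members were not compared in this way.

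The labels do not say whether replicate numbers pair mice. Same-numbered libraries correlated at -0.05 to 0.10 in their deviations, over 0.1 for 1 of 16 pairs. Within their own number, 6 of 16 libraries matched best. Weak correlation cannot exclude that mice were paired. With a replicate block 2 genes were called in the wild type and 29 in the average, and no member was called.

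An unknown depth limits what low values such as those of Snx22 and Bin1 can show.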
